A study of Mus musculus with 6 samples.

Results

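The erythroid program was examined in bulk RNA-seq of maxillary processes through 30 genes listed by symbol: 7 globins, 9 red cell membrane genes, 5 erythroid transcription factors, 4 genes of heme and iron handling and 5 others. The list was chosen with earlier results of the same samples known. Of the 30 symbols, 29 matched a gene among the 53801 gene lines of the count files, and all 29 passed the filter on low counts. Ahsp, the alpha-hemoglobin stabilizing protein, matched no symbol in the annotation and was not analysed here. The samples came from E12.5 embryos, with the strain labelled C57BL/6 and given as C57BL/6J in the protocols, 3 WT and 3 wnt1cre; Rosa26Dlx2/- (Dlx2OE). In Dlx2OE embryos a Dlx2 cassette with a Flag tag, placed at Rosa26 behind the CAG promoter and a stop signal, was released by the Wnt1-driven Cre recombinase, which acts in the neural crest lineage. Blood cells do not arise from the neural crest, so the cells that express most of the 29 genes are not the cells in which the cassette is switched on. The labels name 7 littermates and the methods 6 as the source of the RNA, and they describe 3 independent RNA samples per genotype, so a sample may pool tissue of more than 1 embryo.

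Red cells of the midgestation mouse come from successive sources. Primitive erythroid cells arise in the yolk sac, circulate with their nuclei and use the embryonic globins Hba-x, Hbb-bh1 and Hbb-y beside alpha-globin, moving from Hbb-bh1 to Hbb-y and from Hba-x to Hba-a1 and Hba-a2 as they mature. Definitive cells come later from the fetal liver and use the adult alpha genes with the adult beta genes, which in these mice are Hbb-bs and Hbb-bt. GATA1, KLF1, TAL1 and NFE2 activate globin, heme and membrane genes in these cells, where GFI1B acts as a repressor. Blood in dissected facial tissue lies in its vessels, and its transcripts enter the RNA with those of the tissue.

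The globin promoters are shown because the 2 globins called lower, Hba-a1 and Hba-a2, share nearly all of this sequence while their changes differ in size. The windows are the 250 bases before the RefSeq start site on GRCm38.p6, printed 5′ to 3′ on the coding strand. Capitals mark 4 motifs searched on both strands, which are GATAA (the core of the GATA site), CCNCNCCC (the KLF1 site), the box CCAAT and the box TATAAA. A match on the other strand appears as its complement read backwards, so GATAA there is printed as TTATC, and adjoining or overlapping matches run together. The embryonic genes are Hba-x, at chr11:32276350-32276599 on the plus strand, and Hbb-y, at chr7:103853208-103853457 on the minus strand. The adult-type genes are Hba-a1 (chr11:32283422-32283671, plus), Hba-a2 (chr11:32296242-32296491, plus), Hbb-bs (chr7:103827929-103828178, minus) and Hbb-bt (chr7:103813924-103814173, minus). Alas2 (chrX:150547167-150547416, plus) is added as the gene for the erythroid heme enzyme.
Hba-x: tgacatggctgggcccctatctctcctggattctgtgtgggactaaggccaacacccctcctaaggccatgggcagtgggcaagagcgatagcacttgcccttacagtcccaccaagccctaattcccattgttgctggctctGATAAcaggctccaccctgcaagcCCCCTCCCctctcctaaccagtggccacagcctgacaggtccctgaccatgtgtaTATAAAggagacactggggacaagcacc
Hbb-y: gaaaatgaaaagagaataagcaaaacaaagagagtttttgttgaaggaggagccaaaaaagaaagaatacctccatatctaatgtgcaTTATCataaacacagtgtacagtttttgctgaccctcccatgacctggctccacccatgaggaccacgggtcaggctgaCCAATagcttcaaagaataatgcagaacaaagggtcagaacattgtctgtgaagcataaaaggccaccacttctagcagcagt
Hba-a1: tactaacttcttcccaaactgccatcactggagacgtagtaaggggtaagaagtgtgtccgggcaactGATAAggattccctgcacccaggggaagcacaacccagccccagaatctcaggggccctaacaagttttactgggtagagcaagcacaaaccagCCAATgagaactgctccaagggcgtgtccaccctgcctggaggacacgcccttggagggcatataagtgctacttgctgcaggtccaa
Hba-a2: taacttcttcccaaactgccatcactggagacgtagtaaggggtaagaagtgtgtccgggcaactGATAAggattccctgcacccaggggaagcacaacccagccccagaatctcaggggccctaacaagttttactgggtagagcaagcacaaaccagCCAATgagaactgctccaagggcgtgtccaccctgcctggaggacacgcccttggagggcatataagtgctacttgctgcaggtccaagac
Hbb-bs: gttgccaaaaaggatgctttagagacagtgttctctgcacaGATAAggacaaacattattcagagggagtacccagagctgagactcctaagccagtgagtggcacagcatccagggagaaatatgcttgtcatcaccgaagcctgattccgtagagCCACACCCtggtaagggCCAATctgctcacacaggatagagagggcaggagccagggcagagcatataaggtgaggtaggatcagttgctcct
Hbb-bt: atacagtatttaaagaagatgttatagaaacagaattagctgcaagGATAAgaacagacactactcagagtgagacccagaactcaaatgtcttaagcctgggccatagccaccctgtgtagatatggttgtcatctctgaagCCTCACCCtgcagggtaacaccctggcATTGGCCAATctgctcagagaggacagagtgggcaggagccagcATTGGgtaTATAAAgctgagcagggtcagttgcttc
Alas2: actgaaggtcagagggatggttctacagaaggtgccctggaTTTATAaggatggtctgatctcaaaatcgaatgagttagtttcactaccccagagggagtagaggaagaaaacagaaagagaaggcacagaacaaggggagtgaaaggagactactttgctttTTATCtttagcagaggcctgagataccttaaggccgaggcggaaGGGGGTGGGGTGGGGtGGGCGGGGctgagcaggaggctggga

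Of the 30 symbols, 23 had a window in the RefSeq table, and Hbb-bh1 was not among them. GATAA lay in 6 of the 6 globin windows and in 12 of the 19 windows of the other members, against 22.6% of all 32851 promoter windows. CCAAT lay in 5 of 6 globin windows (33.85% of all windows), the KLF1 site in 3 of 6 (45.9%) and TATAAA in 2 of 6 (12.4%). The KLF1 site was found in the windows of Hba-x, Hbb-bs and Hbb-bt, starting at -83, -93 and -107 from the start site, and not in those of Hbb-y, Hba-a1 or Hba-a2. Hba-a1 and Hba-a2 held an identical run of 247 bases, whereas Hbb-bs and Hbb-bt shared no run over 14 bases. Such matches describe the letters of these windows and do not show binding.

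Each library held 26155500 to 31308813 counts on genes. Dlx2 itself had 1056 to 1409 counts in WT and 3336 to 4102 in Dlx2OE samples, with a log2 fold change of 1.60 (SE 0.12, adjusted p = 0.00241). Reads that the counting assigned to no annotated feature equalled 6.09% to 9.62% of the gene counts in 5 libraries and 19.7% in Dlx2OE sample 3. Afp, a product of yolk sac endoderm and fetal liver, had 884 counts in WT sample 1 and 0 to 38 in the other samples. These libraries were kept. Without both, the median log2 fold change of the members went from -0.54 to -0.29.

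Most erythroid genes had lower mean levels in Dlx2OE maxillary processes, but few of them passed the test. In edgeR's quasi-likelihood test over 17514 genes, with a gene called at a Benjamini-Hochberg adjusted p under 0.05, 4 of the 29 members were called lower in Dlx2OE samples, against 3.46% of all genes tested. They were Hba-a2 and Hba-a1, the adult alpha-globin genes, Alas2, the erythroid enzyme that starts heme synthesis, and Bpgm, the red cell enzyme that makes the bisphosphoglycerate that lowers the oxygen affinity of hemoglobin. No member was called higher by edgeR or DESeq2, against 2.99% of all genes in edgeR's test. At an unadjusted p under 0.05, 10 members were lower and 1 was higher. The share of all genes at this unadjusted threshold was not taken, so such counts, here and below, have no background beside them. The 3 WT and 3 Dlx2OE samples did not overlap in 9 members that were lower (17.3% of all genes) and in 1 that was higher (16.7% of all genes). The median log2 fold change of the 29 members was -0.54 and that of all genes tested was 0.00, with 22 members below 0. Fewer red cells in the tissue and less RNA per red cell cannot be told apart in these bulk samples.

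Of the 4 calls, 1 held whichever sample was left out. Hba-a2 was called in each of the 6 fits that left out 1 sample and without WT sample 1 and Dlx2OE sample 3 together, when it was the only member called. Hba-a1, Alas2 and Bpgm were not called without WT sample 1, WT sample 2, Dlx2OE sample 2 or Dlx2OE sample 3. Their log2 fold changes without WT sample 1 and Dlx2OE sample 3 together were -0.74, -0.69 and -0.44.

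**Figure D1:**
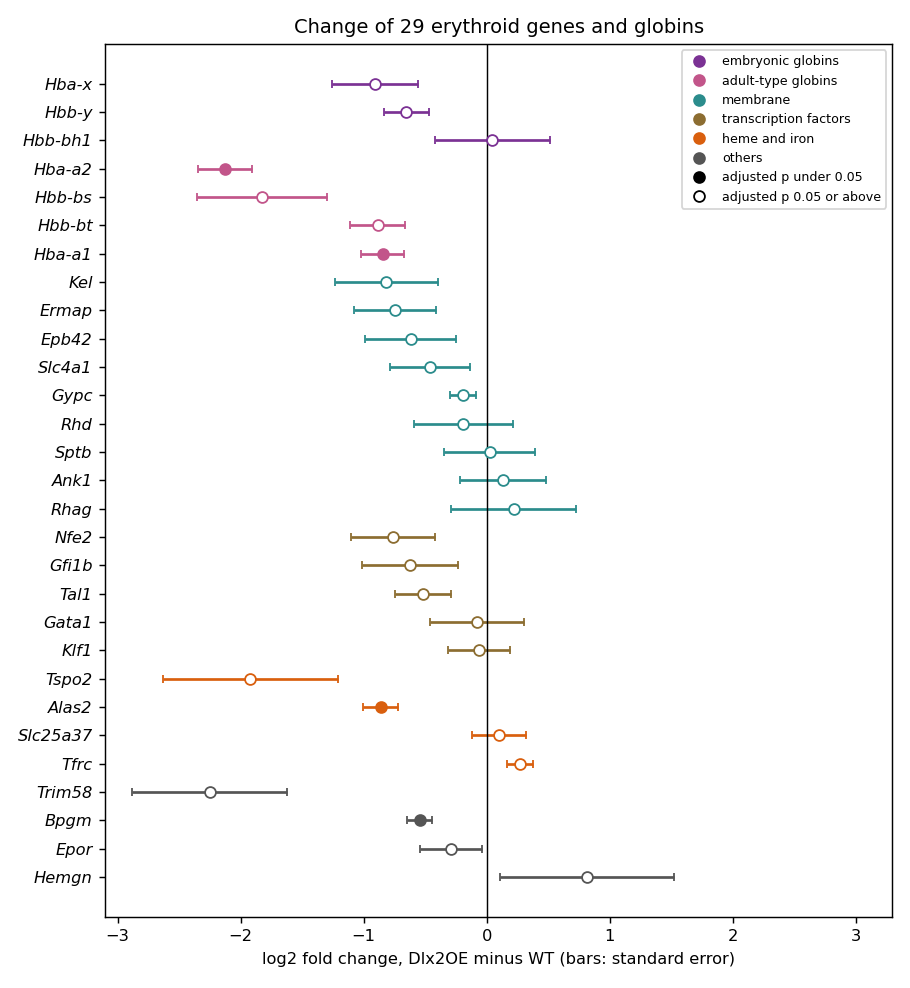
The log2 fold change of the 29 members, Dlx2OE minus WT, is plotted by role with bars for the standard error, and filled circles mark genes with an adjusted p under 0.05. The 4 adult-type globins lie between -2.13 and -0.85, and 3 of the 9 membrane genes lie above 0.

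The 3 embryonic globins differed from each other, and edgeR called 0 of them. Hbb-y, the embryonic epsilon-type beta chain, was the most abundant member in every sample, with 2520, 2391 and 2031 CPM (counts per library size, scaled by the TMM method) in the WT samples, in the order of their numbers here and throughout, and 1725, 1480 and 1208 CPM in the Dlx2OE samples. All Dlx2OE samples lay below all WT samples. Its log2 fold change of -0.65 (SE 0.18) had an edgeR adjusted p of 0.0683, and DESeq2 gave 0.00198.

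Hba-x, the embryonic zeta-type alpha chain, was at 831, 407 and 450 CPM in WT and 190, 422 and 288 CPM in Dlx2OE samples. The groups overlapped, since Dlx2OE sample 2 exceeded WT sample 2, and the log2 fold change of -0.91 (SE 0.35) had an adjusted p of 0.134. Without WT sample 1 it was -0.52, and without WT sample 1 and Dlx2OE sample 3 it was -0.49. Hbb-bh1, the beta chain of the youngest primitive cells, was at 225, 81.7 and 96.7 CPM in WT and 75.3, 222 and 119 CPM in Dlx2OE samples. Here 1 library of each genotype stood high, WT sample 1 and Dlx2OE sample 2, and the log2 fold change was 0.05 (SE 0.47, adjusted p = 0.956). Without Dlx2OE sample 2 it was -0.47.

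All 4 adult-type globins had log2 fold changes below 0, and the alpha pair was called. Hba-a1, at chr11:32283511-32284465, had 15249, 18497 and 12478 counts in WT and 9499, 8938 and 6732 counts in Dlx2OE samples, which are 521, 614 and 400 CPM against 321, 285 and 249 CPM. The groups did not overlap, and the log2 fold change was -0.85 (SE 0.18, adjusted p = 0.036). Hba-a2, the second adult alpha gene at chr11:32296489-32297298, had 1286, 1737 and 1130 counts in WT and 381, 324 and 224 counts in Dlx2OE samples. It fell from 45.9 ± 10.8 CPM to 10.5 ± 2.30 CPM (mean ± SD of 3 samples), with a log2 fold change of -2.13 (SE 0.22, adjusted p = 0.00552), and the WT level was 4.38-fold higher. This was the lowest adjusted p among the members.

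Hbb-bs, an adult beta gene, varied most within WT among the globins, with 76.3, 262 and 134 CPM, and had 76.3, 31.5 and 25.3 CPM in Dlx2OE samples. WT sample 1 and Dlx2OE sample 1 were level, so the groups met, and the log2 fold change of -1.83 (SE 0.53) had an adjusted p of 0.0736. Hbb-bt, its neighbour, was at 88.6, 139 and 94.2 CPM in WT and 70.5, 60.8 and 42.8 CPM in Dlx2OE samples. These groups did not overlap, and the log2 fold change of -0.89 (SE 0.22) had an adjusted p of 0.0561 with edgeR and 0.00153 with DESeq2. With 1 sample left out, both beta genes were called without Dlx2OE sample 1, with adjusted p of 0.02 for Hbb-bs and 0.0308 for Hbb-bt, and neither in the other 5 fits. Without WT sample 2 the log2 fold changes were -1.25 (adjusted p = 0.234) for Hbb-bs and -0.66 (adjusted p = 0.18) for Hbb-bt.

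**Figure D2:**
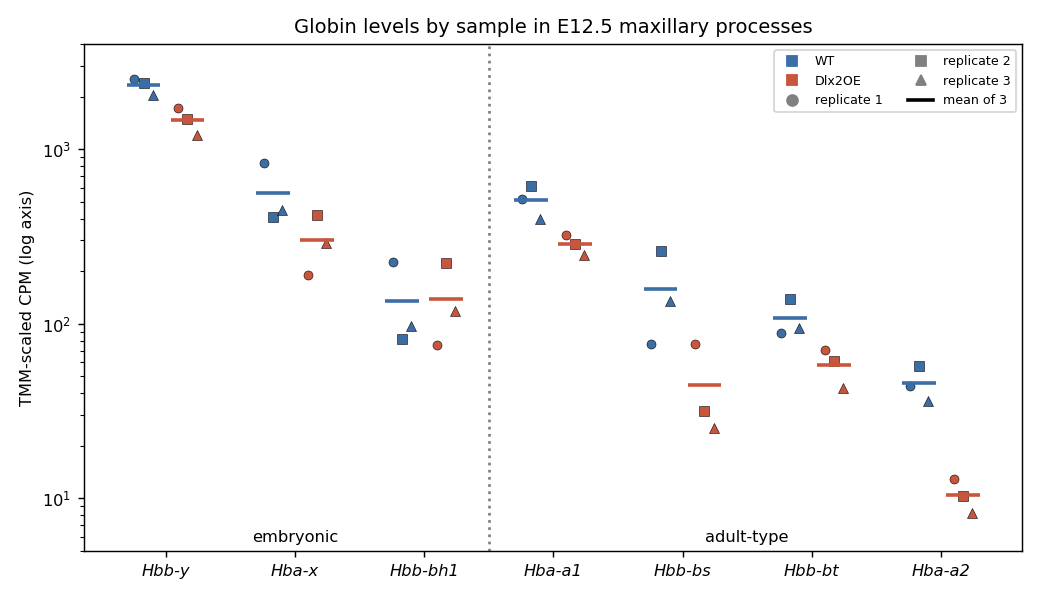
The level of each globin in each sample is plotted as TMM-scaled CPM on a log axis, with symbols for the replicate and a line at the mean of 3. Dlx2OE samples lie below all WT samples in Hbb-y, Hba-a1, Hbb-bt and Hba-a2, while Hbb-bh1 spans 75.3 to 225 CPM with both genotypes mixed.

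Per kb of exon the 7 globins stood above the other members in WT samples, and all but Hba-a2 did so in Dlx2OE samples. In WT samples Hbb-y was at 3655 ± 400.4 CPM per kb, followed by Hba-a1 at 630.1 ± 132 and Hba-x at 600.1 ± 249, which did not differ beyond their spread. Hbb-bh1 at 219 ± 129, Hbb-bs at 205 ± 124 and Hbb-bt at 153 ± 39.5 CPM per kb likewise lay within each other's spread, and Hba-a2 came last at 68.9 ± 16.2. In Dlx2OE samples Hbb-y was at 2324 ± 409 and Hba-a2 at 15.7 ± 3.45 CPM per kb, and Hbb-bs at 57.8 ± 36.2 stood below Hbb-bt at 82.6 ± 19.96. The highest WT levels among the other members were 17.3 ± 1.40 CPM per kb for Bpgm, 15.1 ± 1.09 for Gypc and 13.99 ± 2.17 for Alas2. In Dlx2OE samples Tfrc, at 14.7 ± 1.13 CPM per kb, and Gypc, at 13.2 ± 0.766, lay level with Hba-a2 within its spread. The full exon length was used for every gene. Of the 150-base windows of the adult-type transcripts, 48.4% to 65.7% also occur in another globin, against none of the embryonic ones. The reads were sequenced in pairs, so these single windows do not give the share of read pairs lost. Reads that align to more than 1 gene are not counted, so the adult-type levels per kb may be too low.

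The Hba-a2 to Hba-a1 ratio separated the genotypes. There were 8.43, 9.39 and 9.06 Hba-a2 counts per 100 Hba-a1 counts in WT samples and 4.01, 3.63 and 3.33 in Dlx2OE samples. Library size does not enter this ratio. The difference was -5.31, with SDs of 0.49 in WT and 0.34 in Dlx2OE samples. The ratio was not among the planned comparisons. It restates the fold changes of these 2 genes from the same counts, so it adds no separate support to them. An exact permutation test of 3 against 3 samples can give no p under 0.1, so no p is given for a ratio. The counts of both genes are uncertain, because 48.4% of the 150-base windows of the Hba-a1 transcript and 65.7% of those of Hba-a2 are identical between them, and reads that align to both are not counted to either. With paired reads the share lost may be smaller than that of single windows. Non-unique alignments amounted to 7.14%, 7.66% and 6.31% of the gene counts in WT and 5.63%, 5.97% and 6.15% in Dlx2OE samples, lower in every Dlx2OE library. The part of this in the ratio was not tested. Hbb-bs and Hbb-bt shared 58.7% and 50.7% of their windows, while Hba-x, Hbb-y and Hbb-bh1 shared none with the other globins.

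Embryonic and adult-type globins were then compared within each sample. The summed level of the 3 embryonic globins was 3576, 2880 and 2577 CPM in WT and 1991, 2124 and 1615 CPM in Dlx2OE samples, and that of the 4 adult-type globins was 730, 1072 and 665 CPM in WT and 480, 387 and 325 CPM in Dlx2OE samples. Neither sum overlapped between genotypes, and WT exceeded Dlx2OE 1.58-fold for the embryonic and 2.07-fold for the adult-type sum. Most of each sum came from 1 gene. In WT, Hbb-y had a mean of 2314 of 3011 CPM, and Hba-a1 of 512 of 822 CPM. The embryonic sum therefore mainly follows Hbb-y, while Hba-x and Hbb-bh1 overlapped between genotypes. Embryonic globins made up 83.1%, 72.9% and 79.5% of globin counts in WT and 80.6%, 84.6% and 83.3% in Dlx2OE samples. The means of 78.5 ± 5.17% and 82.8 ± 2.05% (SD, n = 3) lay 4.33 points apart, and the groups overlapped. Reads that align to more than 1 adult-type gene are not counted, while the embryonic genes share no such windows. The adult-type sums, here and in the ratios below, may therefore be too low and the embryonic shares too high. The globins together took 0.333% to 0.403% of the gene counts in WT and 0.201% to 0.258% in Dlx2OE samples.

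The share was also taken within the beta-type and within the alpha-type genes. Hbb-y and Hbb-bh1 held 94.3%, 86.0% and 90.3% of beta-type counts in WT and 92.5%, 94.9% and 95.1% in Dlx2OE samples, still with overlap. Hba-x held 59.5%, 37.8% and 50.8% of alpha-type counts in WT and 36.3%, 58.9% and 52.9% in Dlx2OE samples, and the group means differed by -0.02 points with SDs of 10.96 and 11.7 points. Whether the beta-type and alpha-type shares differed in their change was not tested. Within the embryonic beta genes, Hbb-bh1 counts per 100 Hbb-y counts came to 8.93, 3.42 and 4.76 for WT, against 4.36, 15.0 and 9.84 for Dlx2OE samples. The samples with the lowest ratio were WT sample 2 and Dlx2OE sample 1, and these were also the samples with the most Hbb-bs counts per 100 Hbb-bt counts of their genotype, at 188 and 108.

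**Figure D3:**
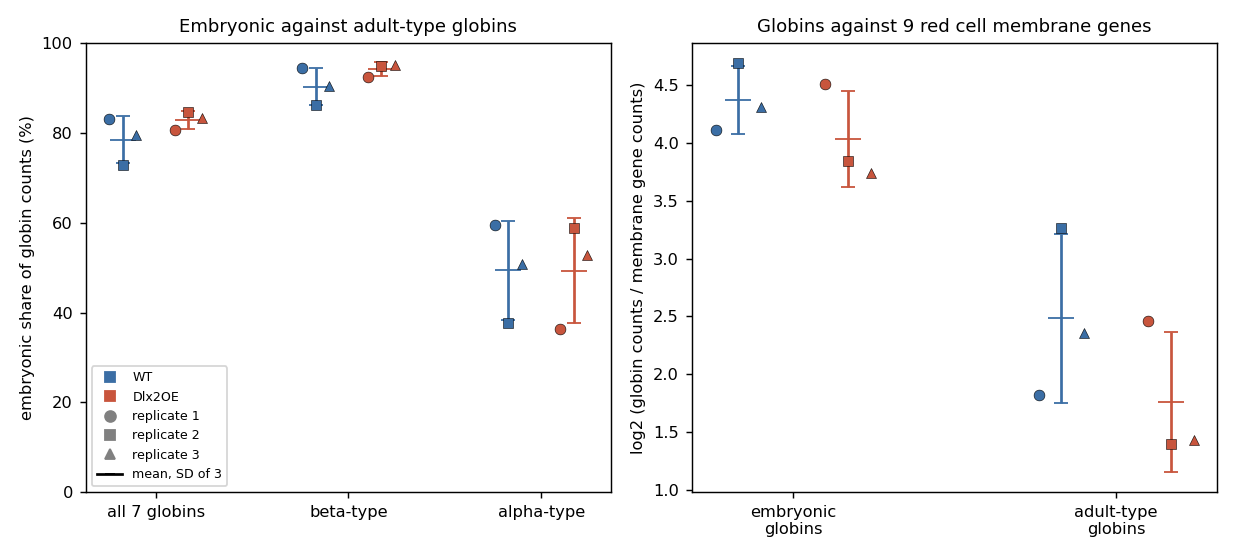
The left panel plots the embryonic share of globin counts in percent for all 7 globins, the beta-type and the alpha-type genes, and the right panel the log2 ratio of summed globin counts to summed counts of 9 membrane genes, with a symbol per sample and the mean ± SD of 3. Every pair of groups overlaps, and the adult-type ratio runs from 1.39 to 3.27.

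The membrane and skeleton genes showed no call in either direction. Of 9 genes, 6 were below 0 and 3 above, with a median log2 fold change of -0.19, no gene without overlap, and none at an unadjusted p under 0.05 in edgeR or called by DESeq2. Slc4a1, the band 3 anion exchanger, was at 91.3, 41.5 and 52.2 CPM in WT and 29.6, 59.4 and 45.2 CPM in Dlx2OE samples. WT sample 1 and Dlx2OE sample 2 were the high samples of their groups, and the log2 fold change was -0.46 (SE 0.33, adjusted p = 0.371). Gypc, glycophorin C, was the steadiest, with 32.3 to 36.8 CPM in WT, 29.1 to 32.6 CPM in Dlx2OE samples and a log2 fold change of -0.19 (SE 0.11). The blood group genes Kel, the Kell endopeptidase, and Ermap, the Scianna protein, had log2 fold changes of -0.82 (SE 0.42) and -0.74 (SE 0.33), and Epb42, which links band 3 to the skeleton, had -0.62 (SE 0.37). Their adjusted p-values ran from 0.179 to 0.295. Without WT sample 1 the log2 fold changes were -0.07 for Slc4a1, -0.34 for Kel, -0.31 for Ermap and -0.27 for Epb42. Without Dlx2OE sample 3 as well they were -0.07, -0.29, -0.35 and -0.18.

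The other membrane members lay near 0. Sptb, the beta chain of spectrin, had a log2 fold change of 0.03 (SE 0.37), and Ank1, the ankyrin that ties spectrin to band 3, had 0.14 (SE 0.35). Rhag and Rhd, the partners of the Rh complex, had 0.22 (SE 0.51) and -0.19 (SE 0.41). Rhag was low throughout, at 0.730 to 2.84 CPM in WT and 1.38 to 2.55 CPM in Dlx2OE samples. The signs of Sptb, Ank1, Rhag and Rhd turned when single libraries were left out.

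Relative to the membrane genes, globins were lower on average in Dlx2OE samples, but not beyond the spread of the samples. The log2 ratio of all globin counts to the counts of the 9 membrane genes was 4.38, 5.15 and 4.65 in WT and 4.82, 4.09 and 4.01 in Dlx2OE samples, a difference of -0.42 with SDs of 0.39 and 0.45. For embryonic globins the difference was -0.34, and for adult-type globins, at 1.82, 3.27 and 2.36 in WT and 2.46, 1.39 and 1.43 in Dlx2OE samples, it was -0.72. The groups overlapped in all 3 ratios. Gypc, Ank1, Sptb and Ermap are also used outside red cells, and without them the difference for all globins was -0.27 and that for adult-type globins -0.58. The summed membrane level was 207, 111 and 130 CPM in WT and 87.3, 148 and 121 CPM in Dlx2OE samples.

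Of the 4 heme and iron genes Alas2 alone was called. It had 39.3, 32.6 and 28.99 CPM in WT and 17.5, 20.5 and 17.4 CPM in Dlx2OE samples, without overlap, and its log2 fold change was -0.86 (SE 0.15, adjusted p = 0.0207). Against the globins it was level, at 9.12, 8.25 and 8.94 Alas2 counts per 1000 globin counts in WT and 7.08, 8.18 and 8.98 in Dlx2OE samples, with overlap. Tfrc, the transferrin receptor that takes up iron in red cell precursors and in dividing cells generally, was at 82.9, 73.9 and 69.4 CPM in WT and 91.7, 97.4 and 83.5 CPM in Dlx2OE samples. It was the 1 member higher without overlap, and its log2 fold change of 0.27 (SE 0.11) had an adjusted p of 0.140. Slc25a37, the mitochondrial iron importer mitoferrin, had a log2 fold change of 0.10 (SE 0.22, adjusted p = 0.783).

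Tspo2, an erythroid relative of the mitochondrial translocator protein, was rare, with 14, 12 and 10 counts in WT and 0, 5 and 4 counts in Dlx2OE samples. The groups did not overlap, and the log2 fold change of -1.92 (SE 0.71) had an adjusted p of 0.126. Trim58, a ubiquitin ligase of late erythroblasts, had 26, 17 and 23 counts in WT and 1, 3 and 9 counts in Dlx2OE samples. Again the groups did not overlap, and the log2 fold change of -2.25 (SE 0.63) had an adjusted p of 0.0683. Without Dlx2OE sample 3 it was 0.0431, and in the other 5 fits with 1 sample left out it ran from 0.0777 to 0.191. Both genes sit near the filter of 10 counts, so a few counts decide their fold changes.

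The remaining members were Bpgm, Epor and Hemgn. Bpgm, which is also used outside red cells, had 66.9, 62.3 and 56.9 CPM in WT and 43.4, 44.5 and 39.6 CPM in Dlx2OE samples, with every Dlx2OE sample below every WT sample and a log2 fold change of -0.54 (SE 0.10, adjusted p = 0.0267). Epor, the erythropoietin receptor, had a log2 fold change of -0.29 (SE 0.25, adjusted p = 0.463). Hemgn, a nuclear protein of blood precursors, had 75, 21 and 37 counts in WT and 21, 160 and 54 counts in Dlx2OE samples. Its highest value, in Dlx2OE sample 2, set its log2 fold change of 0.81 (SE 0.71, adjusted p = 0.465), which was -0.14 without that sample.

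The 5 transcription factors were all below 0, and none was called by edgeR or DESeq2 or had an unadjusted p under 0.05. Klf1, which switches on adult beta-globin, had 2.32, 1.73 and 1.73 CPM in WT and 1.79, 2.04 and 1.70 CPM in Dlx2OE samples. Gata1, the central erythroid activator, had 1.33, 1.09 and 0.609 CPM in WT and 0.776, 1.27 and 0.812 CPM in Dlx2OE samples. Both overlapped fully, with log2 fold changes of -0.06 (SE 0.25) and -0.08 (SE 0.38), and with scaling by library size alone these were 0.0097 and 0.0029. Nfe2, a partner of the globin enhancers, had a log2 fold change of -0.76 (SE 0.34, adjusted p = 0.181) without overlap. Gfi1b, a repressor needed for red cell maturation, had -0.63 (SE 0.39), and Tal1, which also marks endothelium, had -0.52 (SE 0.23, adjusted p = 0.172).

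Samples of 1 genotype differed from each other in an ordered way. WT sample 1 held the highest WT value in 24 of the 29 members, against 34.8% of all genes tested, and Dlx2OE sample 2 held the highest Dlx2OE value in 22, against 29.7%. Each was highest in 8 of the 9 membrane genes. The adult-type globins had another order, being highest in WT sample 2 and Dlx2OE sample 1 in 4 of 4 genes and lowest in Dlx2OE sample 3 in 4 of 4. The libraries with the most membrane transcripts of their genotype were thus not those with the most adult-type globin transcripts.

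**Figure D4:**
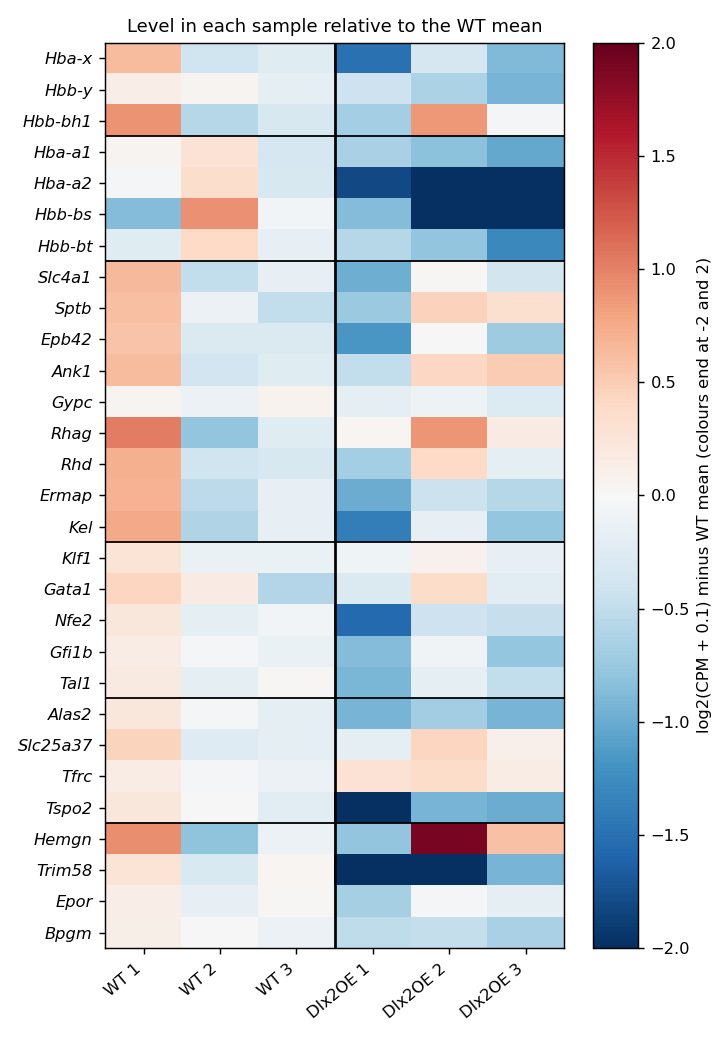
Each cell is the log2(CPM + 0.1) of a member in a sample minus the mean of the WT samples, in log2 units, with red for higher and blue for lower and colours ending at -2 and 2. Most membrane genes are red in WT 1 and pale or red in Dlx2OE 2, while Hba-a1, Hba-a2 and Hbb-bt are blue in all Dlx2OE samples.

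Related genes outside the 30 were counted from lists of the same pathways. Of 4 other globin genes in the files, 1 passed the filter, Hbq1b, a theta-type alpha gene, with 31, 27 and 19 counts in WT and 12, 12 and 6 counts in Dlx2OE samples and a log2 fold change of -1.33 (SE 0.39, adjusted p = 0.0752). Of 12 tested genes of heme synthesis, 0 were called by edgeR, while 3 were lower at an unadjusted p under 0.05 and DESeq2 called 1 lower. The highest mean counts were those of Slc25a39, a mitochondrial carrier, with a log2 fold change of -0.28 (SE 0.13), and Urod, uroporphyrinogen decarboxylase, with -0.44 (SE 0.14). Of 11 other membrane genes edgeR called 0, with 2 higher and 2 lower at an unadjusted p under 0.05 and 1 higher and 2 lower in DESeq2. The highest mean counts were those of Epb41, the protein that joins spectrin to actin, at 0.29 (SE 0.10), and the adducin gene Add1 at 0.13 (SE 0.11).

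Other regulators and enzymes gave 1 call each, while 2.99% of all genes tested were called higher and 3.46% lower. Bcl11a, the repressor of embryonic globins that is also widely used in neural tissue, rose from 92.2 ± 11.7 to 162 ± 8.50 CPM, with a log2 fold change of 0.81 (SE 0.12, adjusted p = 0.0128), and it was the only 1 of 15 regulators called. Blvrb, a reductase abundant in red cells, fell from 22.9 ± 5.41 to 12.6 ± 1.18 CPM, with a log2 fold change of -0.87 (SE 0.20, adjusted p = 0.0427), and it was the only 1 of 11 red cell enzyme and maturation genes called. With 1 sample left out, Bcl11a was called in 3 of 6 fits (adjusted p up to 0.073, lost without WT sample 1, WT sample 2 or Dlx2OE sample 2) and Blvrb in 2 of 6 (up to 0.165, lost also without Dlx2OE sample 3). Of the 9 members that are also used outside red cells, Bpgm alone was called.

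Markers of other cells in the tissue moved in part with the erythroid genes. Endothelial markers were below 0 in 10 of 10 genes, with summed levels of 504, 340 and 418 CPM in WT and 241, 387 and 334 CPM in Dlx2OE samples, and 1 was called lower, Emcn, a vessel sialomucin (log2 fold change -0.98, SE 0.23, adjusted p = 0.0464). WT sample 1 and Dlx2OE sample 2 had the highest endothelial sums of their groups, as they had for the membrane genes. Macrophage markers had summed levels of 95.8 to 109 CPM in WT and 64.4 to 68.4 CPM in Dlx2OE samples, and 3 of 10 were called lower, the complement genes C1qa, C1qb and C1qc, with log2 fold changes of -1.11, -0.90 and -1.12. Of the macrophage markers 9 were below 0 and 1 was above, 7 were lower without overlap and DESeq2 called 6 lower. Over all genes tested by edgeR, 3.46% were called lower and 17.3% were lower without overlap. DESeq2 called 1373 genes lower among 33556 with any count, and it gave some of these, such as Afp, no adjusted p. With 1 sample left out, Emcn, C1qa and C1qb were called in 2 of 6 fits (adjusted p up to 0.157, 0.124 and 0.133) and C1qc in 3 of 6 (up to 0.0814), each call being lost without WT sample 1, WT sample 2 or Dlx2OE sample 2, and all but that of C1qc also without Dlx2OE sample 3. Megakaryocyte markers overlapped, at 41.8 to 54.5 CPM in WT and 35.1 to 51.0 CPM in Dlx2OE samples, and edgeR and DESeq2 called 0 of 10, with 1 lower at an unadjusted p under 0.05. Pf4, a platelet chemokine, had a log2 fold change of -0.47 (SE 0.24), and Itga2b, the platelet integrin, -0.34 (SE 0.20).

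Hepatocyte and yolk sac markers summed to 41.4, 3.62 and 1.38 CPM in WT and 0.369 to 0.924 CPM in Dlx2OE samples. Of 8 such genes 3 were tested and edgeR called 0, with 2 lower at an unadjusted p under 0.05 and 1 lower in DESeq2. The highest 2 by mean level, Afp and Apoa1, had 884, 38 and 13 and 126, 26 and 13 counts in WT samples and no more than 5 counts in any Dlx2OE sample. Maxillary mesenchyme markers had summed levels of 1722 to 2014 CPM in WT and 2152 to 2520 CPM in Dlx2OE samples. The genes of this list did not move together. All 10 were tested, 5 were above 0 and 5 below, and their median log2 fold change was -0.006. Without overlap 3 were higher and 1 was lower (16.7% and 17.3% of all genes), and DESeq2 called 3 higher and 1 lower. In edgeR's test 1 was called higher, against 2.99% of all genes. It was Twist1, a mesenchymal transcription factor (log2 fold change 0.65, SE 0.14, adjusted p = 0.0402). With 1 sample left out, Twist1 was called only without WT sample 3, and its adjusted p ran up to 0.156. The part of endothelial, macrophage and yolk sac transcripts in the erythroid results was not tested.

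**Figure D5:**
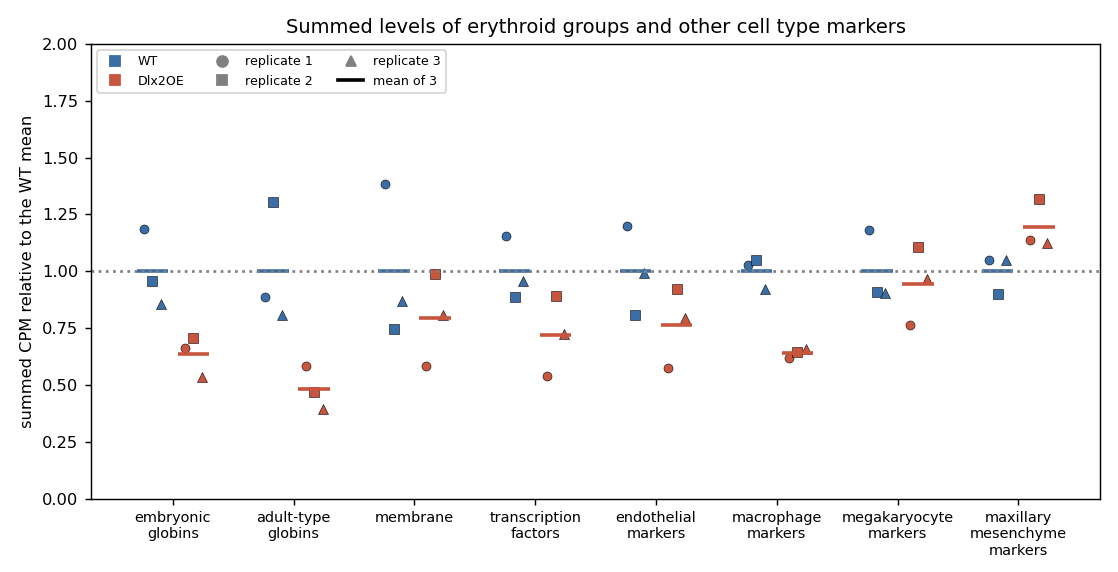
Summed CPM of 4 erythroid groups and 4 marker lists is plotted per sample relative to the WT mean, with a line at the mean of 3. Embryonic globins, adult-type globins and macrophage markers lie lower in all Dlx2OE samples than in any WT sample, whereas membrane genes, endothelial and megakaryocyte markers overlap.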

How the data were processed

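RNA-seq counts of 6 maxillary process samples, 3 WT and 3 Dlx2OE, were analysed. The authors trimmed the reads, aligned them to mm10 and deposited raw counts per gene. The submitters' processing notes name STAR 2.7.3a and HTSeq 0.12.4. The annotation release and the strand setting are not given in the sources used here. Genotypes and replicate numbers came from the sample labels. Symbols came from GENCODE M21 (GRCm38), which held 53706 of 53801 identifiers, and 95 were kept without a symbol. No pair of libraries of a genotype agreed within sampling noise (chi-square per degree of freedom 31.9 to 72.7).

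Genes were kept by filterByExpr (minimum count 10), library sizes were scaled by TMM, and genotype was tested with edgeR 4.0.16 (R 4.3.3) by the quasi-likelihood F test with Benjamini-Hochberg adjustment over 17514 genes. DESeq2 1.42.0 was an alternative. Levels are TMM-scaled CPM, summed by role or divided by exon length in kb. The SE of a log2 fold change was calculated back from the F test, as its size divided by the square root of F. SDs are over 3 samples, and p-values measure the spread between these samples, which may be technical in part. The counting floor was 3 counts, 0.0958 to 0.115 CPM, and covers counting error only. The scripts were tested on simulated data. Plots used matplotlib 3.10.9 (Python 3.11.15).

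The members and lists were chosen with earlier results of these data known. All 30 members are named, with Dlx2 as the check of the cassette, and from each added list the genes called in either direction or, with no call, the 2 with the highest mean level. The lists were other globin genes, heme synthesis, other membrane genes, other regulators, red cell enzymes, members used outside red cells, and markers of endothelium, macrophages, megakaryocytes, hepatocytes with yolk sac, and maxillary mesenchyme. Alternatives were other scaling (RLE, library size alone, library sizes without hemoglobin and mitochondrial genes), other filters, DESeq2, a replicate block, other sets of globins or membrane genes, each sample left out, and WT sample 1 with Dlx2OE sample 3 left out, which was chosen after seeing the data. Promoter sequences are from RefSeq (GRCm38.p6).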

Additional observations from a re-analysis of the deposited data

How the results depend on the processing

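The count of members called lower was 4 with RLE factors, library size alone, a minimum of 10 counts in every sample, the replicate block and library sizes without hemoglobin and mitochondrial genes. It was 6 with DESeq2 (adding Hbb-y and Hbb-bt), 8 with no filter on low counts (adding Hba-x, Hbb-bs, Hbb-bt and Trim58), 1 to 6 with 1 sample left out, and 1 without WT sample 1 and Dlx2OE sample 3 together. No member was called higher in any of these fits. Genes called higher and lower numbered 1055 and 1373 with DESeq2, 865 and 1179 with no filter, 39 to 975 and 40 to 1298 with 1 sample left out, and 40 and 35 without both samples. DESeq2 and the fit with no filter each covered 33556 genes, against 17514 in the main fit. DESeq2 gave no adjusted p for some of its genes. The fits with 1 sample left out covered 17902 to 18194 genes. The difference of mean log2 summed level of the embryonic globins was -0.65, and -0.41 without both samples. Leaving out 1 sample moved the median log2 fold change of the members from -0.71 to -0.31, the difference in embryonic globin share from 1.53 to 6.62 points, the difference of the log2 ratio to membrane genes from -0.68 to -0.21 for all globins, -0.58 to -0.18 for embryonic and -1.07 to -0.33 for adult-type globins, and that of the summed adult-type level from -1.18 to -0.83. The log2 fold change changed sign in 9 members with no call, and the cause was not tested. With 1 sample left out it ran from -0.47 to 0.63 for Hbb-bh1, -0.20 to 0.39 for Sptb, -0.061 to 0.52 for Ank1, -0.13 to 0.96 for Rhag, -0.53 to 0.27 for Rhd, -0.15 to 0.086 for Klf1, -0.35 to 0.16 for Gata1, -0.072 to 0.35 for Slc25a37 and -0.14 to 1.46 for Hemgn. Sptb was at -0.0018 with no filter, Klf1 and Gata1 were at 0.0097 and 0.0029 with library size alone, and Rhd, Klf1 and Gata1 were at 0.33, 0.15 and 0.27 without both samples. The replicate numbers did not pair the samples: correlations of the deviations of same-numbered samples were -0.07, -0.21 and 0.07, and WT sample 1 correlated best with Dlx2OE sample 2 (0.34). With the replicate block 4 members were called lower and 0 higher, and 407 genes higher and 554 lower. The depth of 26155500 to 31308813 counts limits Tspo2, Trim58 and Hbq1b, which had 0 to 31 counts.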
